A study of Homo sapiens with 8 samples.

Results

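The regions bound by RNA polymerase II were set against the regions carrying histone H3 trimethylated at lysine 4 (H3K4me3) in unstimulated T47D-MTVL cells, a human luminal breast cancer line with a progestin-responsive reporter. The members were all regions of the authors' 2 deposited lists for these targets outside chromosome M: 31113 RNA polymerase II regions and 22590 H3K4me3 regions, 53703 of the 224950 regions in the 8 lists of the series. Both chromatin samples came from cells that had been kept without serum and had received no hormone, and each target was precipitated from fixed chromatin and sequenced in 1 library. Other lists of the series were used for comparison: H3K4me1 (H3 monomethylated at lysine 4) in unstimulated cells, and progesterone receptor (PR) sites in unstimulated cells and after 5, 30, 60 or 360 min of R5020, a synthetic progestin, at 10 nM. Fixed chromatin came from many cells, so an overlap does not show that both were on the same molecule.

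RNA polymerase II transcribes protein-coding genes and many noncoding ones. It gathers at promoters, where it initiates and often pauses shortly downstream of the start, and it is also found along transcribed gene bodies and at active enhancers. H3K4me3 is placed by the SET1 and MLL methyltransferase complexes on the nucleosomes that flank active promoters, and at CpG-rich promoters it can also be present with little transcription. H3K4me1 marks enhancers and the shoulders of promoters.

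The lists give hg19 positions with no height or score, and the read depth behind them is unknown. Polymerase regions covered 19.4 Mb and H3K4me3 regions 16.7 Mb, on the same 23 chromosomes, and no region overlapped another of its own list. Without replicates, no difference between the lists could be set against the spread between cultures. The intervals given are exact (Clopper-Pearson) 95% intervals over the regions of 1 library, and cover counting error only. No gene was assigned to a region, because an annotation of hg19 was not used here, and for the same reason the luminal identity of the cells was not checked at marker genes.

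Somewhat more polymerase regions lay outside H3K4me3 than overlapped it, whereas most H3K4me3 regions held polymerase. Of the 31113 polymerase regions, 14244 overlapped an H3K4me3 region by 1 bp or more, which is 45.8% (45.2 to 46.3%). Of the 22590 H3K4me3 regions, 15147 overlapped a polymerase region, which is 67.1% (66.4 to 67.7%). The polymerase list thus left 16869 regions without H3K4me3, and the H3K4me3 list left 7443 regions without polymerase. In covered length the lists shared 7.97 Mb, 41.0% of the polymerase length and 47.8% of the H3K4me3 length. These shares depend on the overlap asked for: when each region had to cover at least 50% of the other, 19.2% of polymerase regions and 26.4% of H3K4me3 regions counted as shared. With the midpoint of a region inside the other list as the criterion, the shares were 38.7% and 44.7%.

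Most overlaps were partial. A region that met several of the other list was counted in a pair with each, so a shift was not told apart from the splitting of regions. Among the 17670 overlapping pairs, 67.0% overlapped in part only, 20.3% had the polymerase region wholly inside the H3K4me3 region and 12.7% had the H3K4me3 region wholly inside the polymerase region. The centres of the paired regions lay a median of 301.5 bp apart (quartiles 156 and 475 bp). A median of 65.5% of the polymerase region and 51.0% of the H3K4me3 region was shared in a pair. Joined through their overlaps, the regions formed 11721 groups, of which 63.2% held 1 region of each kind. Another 19.1% joined 1 polymerase region to several H3K4me3 regions, and 10.5% joined several polymerase regions to 1 H3K4me3 region.

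Regions that overlapped the other list were the wider ones in both lists. Polymerase regions with H3K4me3 had a median width of 603 bp (interval of the median 595 to 610 bp), and those without it 402 bp (397 to 406 bp), a ratio of 1.5. H3K4me3 regions with polymerase had a median width of 795 bp (786 to 803 bp), and those without it 372 bp (367 to 379 bp), a ratio of 2.14. H3K4me3 regions with polymerase made up 78.8% of the length covered by H3K4me3, and polymerase regions with H3K4me3 made up 53.3% of the length covered by polymerase. A wider region also meets another region more easily, so width and overlap are not independent here. With each region's midpoint as the criterion, the H3K4me3 regions without polymerase had a median width of 560 bp, and with regions of a list within 500 bp merged, those with polymerase had one of 1307 bp. Which list had the larger ratio of widths depended on the rule: with a reciprocal overlap of 50%, the medians were 778 bp with and 428 bp without H3K4me3 for polymerase regions, and 821 bp with and 553 bp without polymerase for H3K4me3 regions, so that the ratio was larger for polymerase. It was also larger for polymerase with midpoints and in the wider 50% of each list.

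**Figure D1:**
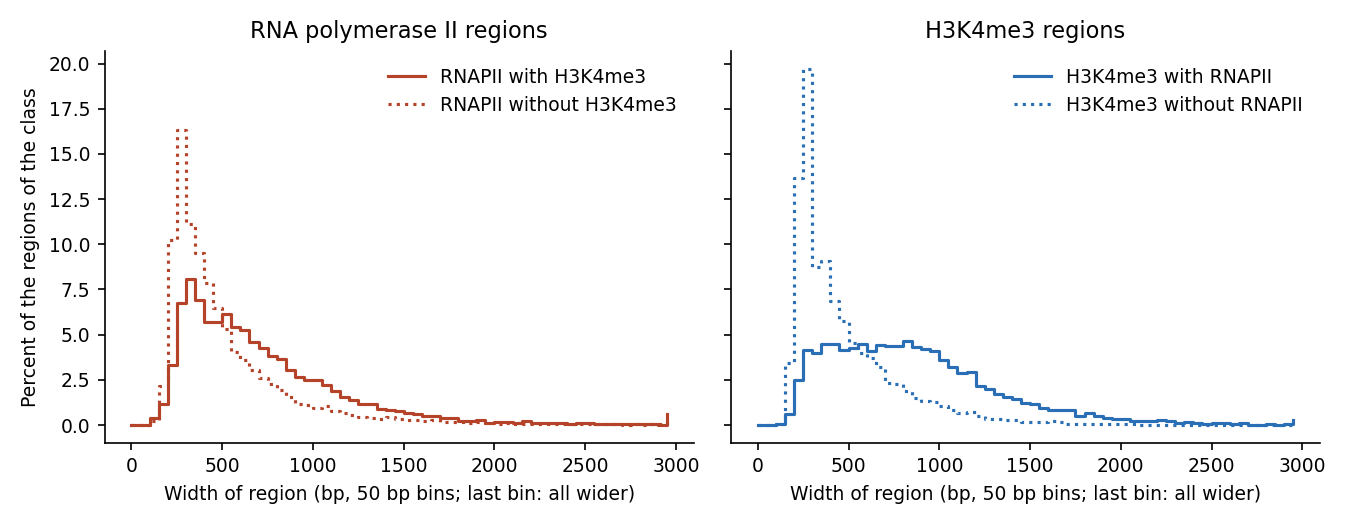
Width of regions in bp (x axis, 50 bp bins, the last bin holding all wider regions) against the percent of each class (y axis), for RNA polymerase II regions with and without H3K4me3 (left) and H3K4me3 regions with and without RNA polymerase II (RNAPII, right). The classes without the other list crowd at narrow widths, with medians of 402 and 372 bp, while H3K4me3 regions with polymerase spread broadly around a median of 795 bp.

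Across widths the lists behaved unlike each other at the wide end. In the narrowest 10% of each list, 24.3% (22.8 to 25.8%) of polymerase regions overlapped H3K4me3 and 27.0% (25.2 to 28.9%) of H3K4me3 regions overlapped polymerase. In the widest 10% the shares were 64.0% (62.3 to 65.7%) for polymerase and 93.2% (92.1 to 94.2%) for H3K4me3. The polymerase share levelled off, since it was already 65.4% in the class next to the widest, whose median width was 988 bp. Of the 580 polymerase regions of 2 kb or more, 337 (58.1%, 54.0 to 62.2%) overlapped H3K4me3, so that 243 of these wide regions had none. Among the 434 H3K4me3 regions of that size, 416 (95.9%, 93.5 to 97.5%) held polymerase and 18 did not.

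**Figure D2:**
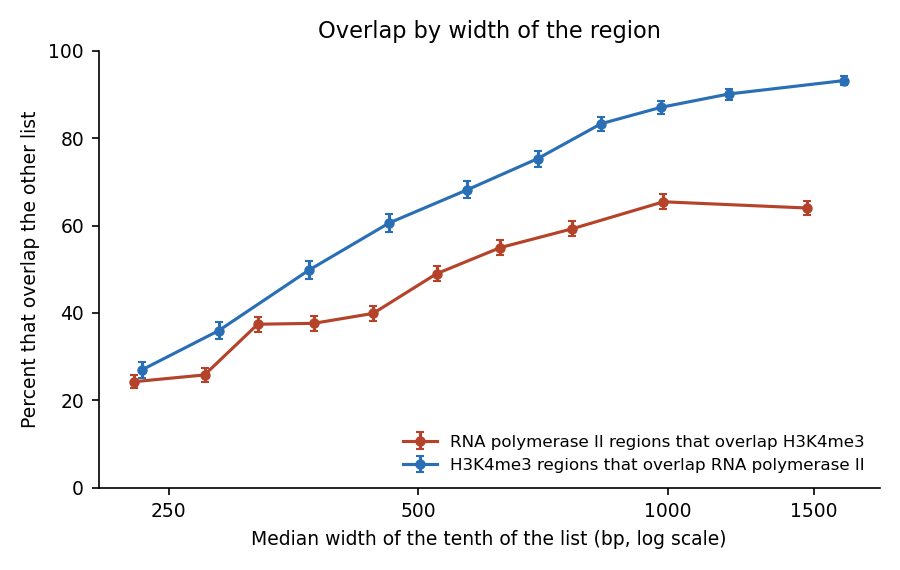
Percent of regions that overlap the other list (y axis, bars are exact 95% intervals over regions) against the median width in bp (x axis, log scale) of 10 classes of near equal size in each list. The H3K4me3 share climbs to 93.2% in the widest class, and the polymerase share stays at 65.4% and 64.0% in the 2 widest classes.

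The widest regions illustrate both patterns. The widest polymerase region that overlapped H3K4me3 lay on chromosome 11 from 67201068 to 67210757 (9689 bp) and met a single H3K4me3 region. It was followed by regions on chromosome 10 from 102820265 to 102827881 (7616 bp, 4 H3K4me3 regions), chromosome 16 from 88989805 to 88996162 (6357 bp, 1 region), chromosome 19 from 1166292 to 1172649 (6357 bp, 3 regions) and, on chromosome 9, 140506008 to 140511684 (5676 bp, 1 region). The widest polymerase regions without H3K4me3 were as wide. The first of them lay on chromosome 17 from 80036996 to 80048529 (11533 bp), with H3K4me3 4927 bp away, and the next 2 lay side by side on chromosome 16, from 85667985 to 85678510 (10525 bp) and from 85660795 to 85667760 (6965 bp). The remaining 2 were on chromosome 22 from 46507525 to 46514374 (6849 bp, H3K4me3 29663 bp away) and on chromosome 17 from 40122250 to 40128378 (6128 bp, 2363 bp away). Each of these 10 regions overlapped an H3K4me1 region.

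The widest H3K4me3 regions each held several polymerase regions. The region on chromosome 10 from 8096657 to 8104422 (7765 bp) held 5, the one on chromosome 7 from 5458424 to 5463440 (5016 bp) held 2, and 3 each were held by 39680337 to 39684594 on chromosome 17 (4257 bp) and 69255798 to 69259774 on chromosome 14 (3976 bp). The region on chromosome 11 from 62310415 to 62314346 (3931 bp) held 7, the highest number in the list. It was followed in that order by 6244901 to 6247404 on chromosome 10 and 80053456 to 80056086 on chromosome 17, with 6 each. In the other direction, the polymerase region on chromosome 16 from 85643304 to 85648327 met 6 H3K4me3 regions, and those on chromosome 1 from 26946589 to 26948437 and from 154971434 to 154974838 met 4 each. A minority of regions met several of the other list: 14.3% of H3K4me3 regions with polymerase held more than 1 polymerase region, and 22.4% of polymerase regions with H3K4me3 met more than 1 H3K4me3 region.

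The widest H3K4me3 regions without polymerase were far narrower. The first, 80913119 to 80915858 on chromosome 13, spanned 2739 bp, and its nearest polymerase region was 857393 bp away. The next lay on chromosome 5 from 107005736 to 107008392 (2656 bp, polymerase 707819 bp away) and from 98104375 to 98106775 (2400 bp, 1797 bp away), and on chromosome 6 from 135502354 to 135504746 (2392 bp, 126056 bp away). The fifth, on chromosome 5 from 115908095 to 115910286 (2191 bp), had polymerase just 89 bp outside its edge.

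The distances to the other list differed in form. Polymerase regions without H3K4me3 lay a median of 9342 bp from the nearest H3K4me3 region (interval 9044 to 9641 bp, quartiles 2699 and 25344 bp). H3K4me3 regions without polymerase lay a median of 22950 bp from the nearest polymerase region (21069 to 24983 bp), but with quartiles of 720 and 108957 bp. Within 1 kb of the other list were 13.9% (13.4 to 14.4%) of polymerase regions without H3K4me3 and 27.5% (26.5 to 28.5%) of H3K4me3 regions without polymerase. Beyond 100 kb were 4.76% of the polymerase regions, 803 in number, and 26.5% of the H3K4me3 regions, 1972 in number. H3K4me3 without polymerase was thus more frequent at both ends of the distances than polymerase without H3K4me3. Between these limits, 8.25% of the H3K4me3 class lay at 1 to 5 kb, 5.15% at 5 to 10 kb, 20.7% at 10 to 50 kb and 11.9% at 50 to 100 kb.

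**Figure D3:**
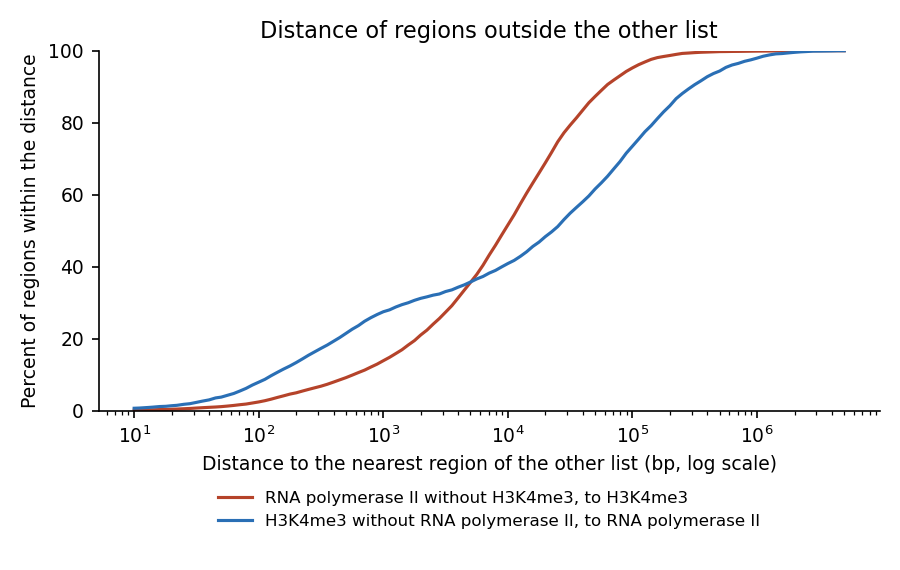
Percent of regions (y axis) within a given edge-to-edge distance of the nearest region of the other list (x axis, bp, log scale), for RNA polymerase II regions without H3K4me3 and H3K4me3 regions without RNA polymerase II. The H3K4me3 curve is higher up to 1 kb (27.5% against 13.9%) and lower from 10 kb on (40.9% against 51.6%).

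These medians follow the rule for sharing. With regions within 1 kb counted as shared, the median distance of the remaining H3K4me3 regions was 57788 bp, and with neighbouring regions of a list merged over gaps of up to 500 bp it was 50321 bp. With midpoints as the criterion it was 273 bp. For polymerase regions, a reciprocal overlap of 50% gave a median distance of 2792 bp. Some regions of the near class adjoined a shared one: 1771 of the 7443 H3K4me3 regions without polymerase (23.8%, 22.8 to 24.8%) were linked by gaps of at most 500 bp to an H3K4me3 region that held polymerase.

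The 3 most remote polymerase regions were 254 to 330 bp wide, and the 3 most remote H3K4me3 regions 333 to 1084 bp. Beyond 100 kb from the other list, regions of both kinds were narrow. Their median width was 329 bp for the 803 polymerase regions and 359 bp for the 1972 H3K4me3 regions. The polymerase region farthest from H3K4me3 was on chromosome 6 from 66497661 to 66497915, 2150625 bp away, followed by regions on chromosome 11 from 80284140 to 80284470 (1997648 bp away) and chromosome 4 from 116034861 to 116035150 (1970957 bp away). For H3K4me3 the list was led by regions on chromosome 21 from 11054828 to 11055161 and from 11084709 to 11085307, at 4297113 and 4266967 bp from polymerase, and by a region on chromosome X from 95939525 to 95940609, at 4134149 bp. Distances are in listed positions and include assembly gaps.

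Shared regions were more frequent among the nearest neighbours in the other list than in that list as a whole. For 77.9% (77.2 to 78.5%) of polymerase regions without H3K4me3, the nearest H3K4me3 region held polymerase itself, against 67.1% of all H3K4me3 regions that did so. For 65.8% (64.7 to 66.8%) of H3K4me3 regions without polymerase, the nearest polymerase region carried H3K4me3, against 45.8% of all polymerase regions. These shares describe neighbours, and the density of regions was not held equal.

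Some polymerase regions without H3K4me3 came in runs. At 1 kb the classes were alike: 55.2% of the class with H3K4me3 and 55.0% of the class without had another polymerase region that near. At 2 kb they were not. Of the 19223 polymerase regions with another within 2 kb, 43.0% (42.3 to 43.7%) overlapped H3K4me3. Of the 11890 with none, 50.3% (49.3 to 51.2%) did. Successive polymerase regions without H3K4me3 were joined over gaps of at most 2 kb with no H3K4me3-bearing polymerase region between them. Of the 10209 runs, 7413 (72.6%) were single regions. The 482 runs of 5 or more regions held 3720 of the 16869 regions (22.1%), and 90 runs held 10 or more. The longest held 45 regions each, on chromosome 1 from 204050447 to 204119135 (68688 bp) and on chromosome 3 from 8569733 to 8613439 (43706 bp), and runs of 32 and 26 regions lay on chromosome 5 from 35110151 to 35139579 and from 35081293 to 35105282. The chromosome 1 run spanned 1 H3K4me3 region, and the other 3 spanned none.

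H3K4me3 was often split into neighbouring regions, and polymerase often crossed the split. The list held 7080 pairs of neighbouring H3K4me3 regions at most 500 bp apart, and in 65.6% of them both regions overlapped polymerase. A polymerase region covered the centre of the gap in 58.0% (56.8 to 59.1%) of these pairs. By gap size this share was 57.8% for 0 to 50 bp, 63.1% for 51 to 100 bp and 47.5% for 201 to 300 bp. Of the 13356 H3K4me3 regions with another one within 2 kb, 75.8% (75.0 to 76.5%) overlapped polymerase, against 54.4% (53.4 to 55.5%) of the 9234 with none, whose median width was 659 bp, against 622 bp for those with a neighbour. In the 1889 pairs with gaps of 101 to 200 bp, polymerase regions covered the centre of the gap in 65.2% (63.0 to 67.3%). They covered more positions just inside the flanking H3K4me3 regions, 72.9% at 150 bp to the left of the gap centre and 73.6% at 150 bp to the right, and 54.2% and 53.6% of the centres of these H3K4me3 regions. In the 581 pairs with gaps of 301 to 500 bp, polymerase covered the gap centre in 34.6% (30.7 to 38.6%) and positions at 300 bp to either side in 59.7% and 59.2%. For gaps over 50 bp, polymerase was thus listed most often at the inner edges of the split H3K4me3 regions. It was listed less often in the middle of gaps over 200 bp than of narrower ones. H3K4me1 covered 66.8% of the centres of gaps of 101 to 200 bp and 50.4% of those of 301 to 500 bp.

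**Figure D4:**
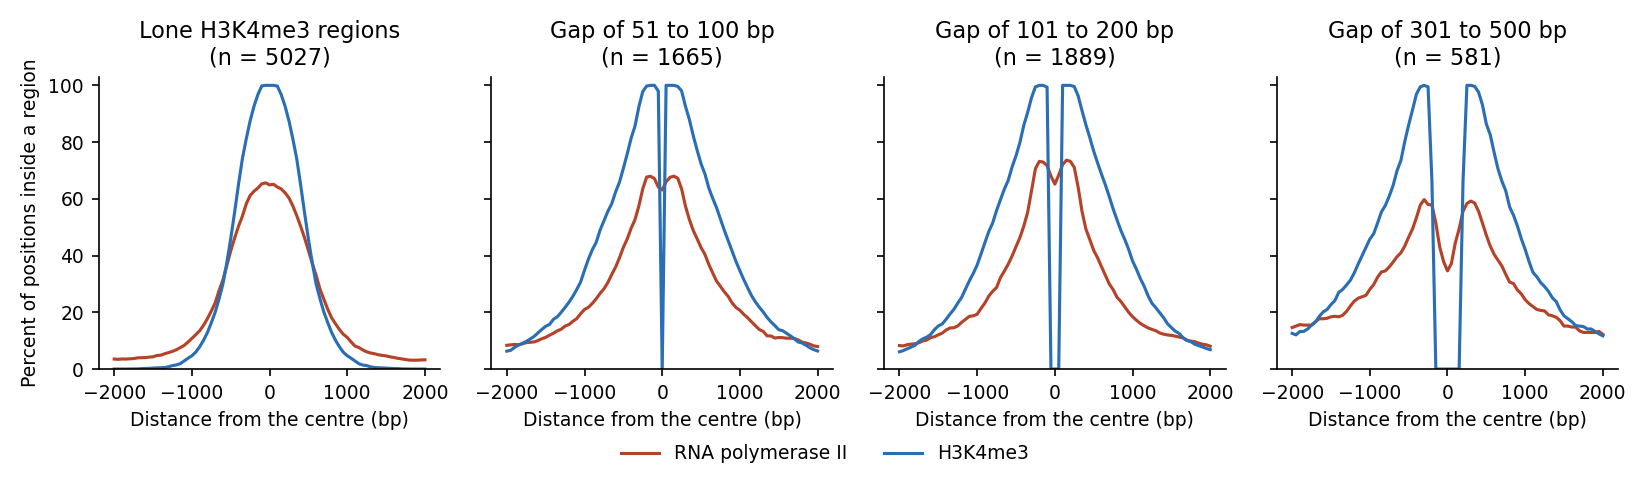
Percent of positions inside an RNA polymerase II or an H3K4me3 region (y axis) by distance in bp (x axis) from the centre of lone H3K4me3 regions that overlap polymerase (left) and from the centre of the gap between neighbouring H3K4me3 regions, by gap size. The gap sizes shown are 51 to 100, 101 to 200 and 301 to 500 bp. The H3K4me3 lines drop to 0 in the gaps by construction. Polymerase peaks beside the gaps, at 73.6% for gaps of 101 to 200 bp, and dips to 34.6% in the centre of gaps of 301 to 500 bp.

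The profile at lone H3K4me3 regions with polymerase, chosen for their overlap and so a description only, had a single peak. Polymerase covered 64.9% of the centres of these 5027 regions, 41.7% and 41.8% of positions 500 bp to the left and right, and 3.52% and 3.24% at 2000 bp. Around the 4207 lone H3K4me3 regions without polymerase it covered 1.21% and 1.12% of positions 1000 bp away and 0.642% at 2000 bp to either side.

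By chromosome, both lists were densest on chromosomes 17 and 19. Density was taken per Mb up to the last base listed in any file. Polymerase regions were most frequent on chromosome 17, at 35.6 per Mb, and H3K4me3 regions on chromosome 19, at 22.7 per Mb. On chromosome 17 the lists held 2894 polymerase and 1430 H3K4me3 regions, a ratio of 2.02, the highest of the 23 chromosomes. At the other end, polymerase and H3K4me3 regions numbered 2.99 and 3.34 per Mb on chromosome X, 2.95 and 3.44 on chromosome 13 and 3.05 and 3.60 on chromosome 18, and on each of these the polymerase list was the shorter one. Across the 23 chromosomes, the rank correlation (Spearman's rho) of polymerase with H3K4me3 density was 0.95. It was 0.99 for the regions of each list that overlapped the other, where shared regions are counted on both sides, and 0.86 for those that did not. Chromosomes share their gene density and DNA copies between the 2 libraries, so these values are descriptions.

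The classes spread unequally over the chromosomes. Polymerase regions without H3K4me3 ranged from 0.884 per Mb on chromosome 18 to 22.9 per Mb on chromosome 17, and those with H3K4me3 were sparsest on chromosome X, at 1.83 per Mb, and densest on chromosome 19, at 17.0. The share of polymerase regions with H3K4me3 was lowest on chromosome 17, at 35.8% (34.1 to 37.6%), and highest on chromosome 18, at 71.0% (64.8 to 76.7%). It was lower on chromosomes with more polymerase regions per Mb (rho of -0.77 over 23 chromosomes, where both measures contain the number of polymerase regions). The share of H3K4me3 regions with polymerase lay between 60.7% and 77.2% on every chromosome but chromosome 3, where it was 49.1% (46.9 to 51.4%).

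**Figure D5:**
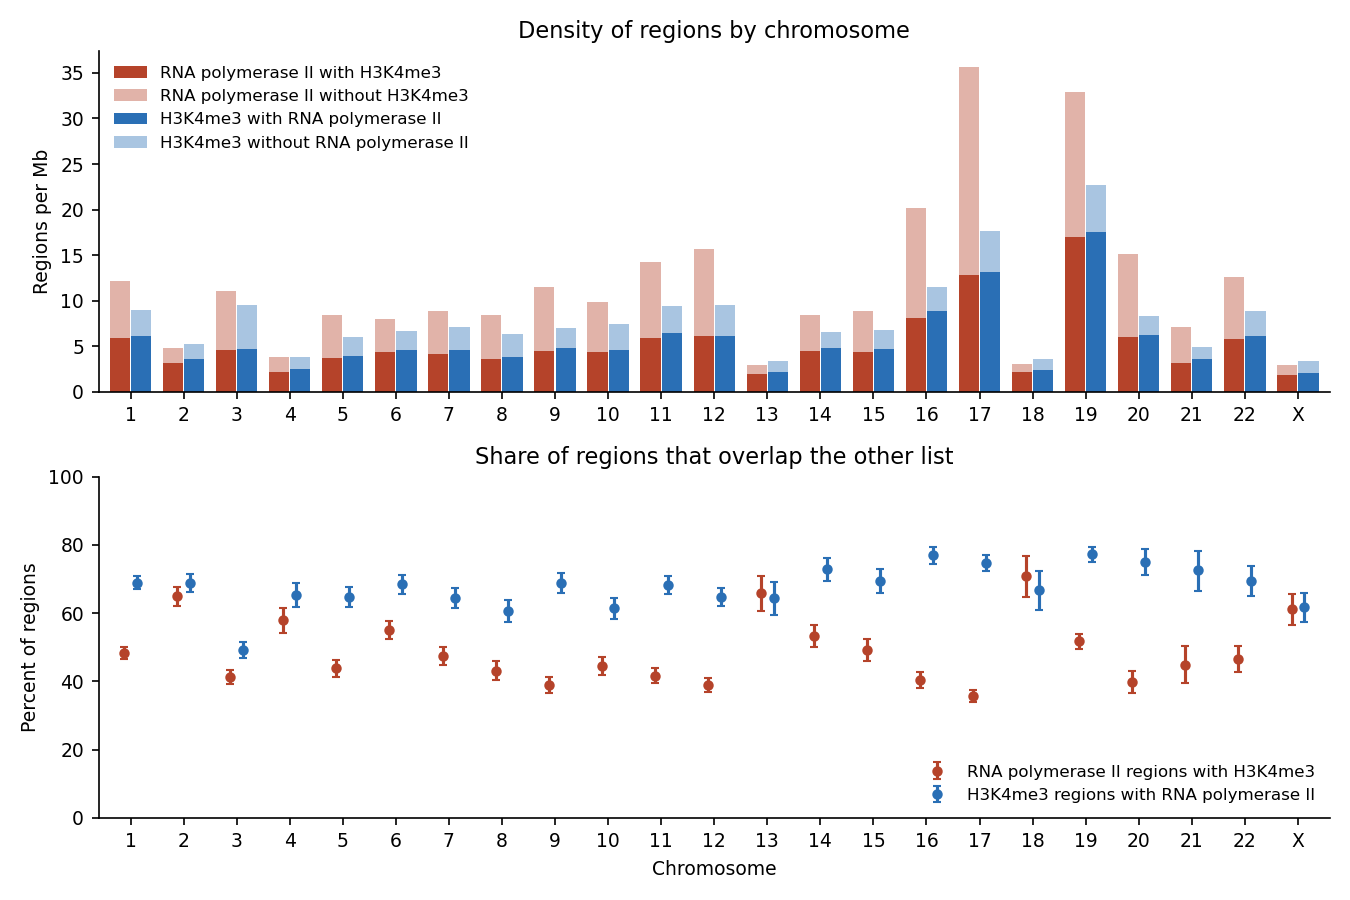
Regions per Mb by chromosome (top), with RNA polymerase II left of H3K4me3 and each bar divided into regions with (dark) and without (light) the other list, and the share of regions that overlap the other list with exact 95% intervals over regions (bottom). Chromosome 17 has the tallest polymerase bar, 35.6 per Mb, and chromosome 3 the lowest H3K4me3 share with polymerase, 49.1%.

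The low share on chromosome 3 was seen on its distal long arm. From 160 Mb on, a limit chosen after the values were seen, 30.1% (27.1 to 33.2%) of 895 H3K4me3 regions held polymerase and 27.4% (24.6 to 30.3%) of 989 polymerase regions held H3K4me3. On the rest of chromosome 3 the shares were 66.2% (63.1 to 69.1%) and 52.7% (49.8 to 55.5%), against 68.7% (68.1 to 69.3%) and 46.1% (45.5 to 46.7%) on all other chromosomes. The polymerase share on the rest of chromosome 3 was thus above that of the other chromosomes. The distal stretch held 626 of the 7443 H3K4me3 regions without polymerase, with a median width of 300.5 bp, against 878 bp for the H3K4me3 regions with polymerase there. The 5 windows of 1 Mb with the most H3K4me3 regions without polymerase all lay in it, led by 193 to 194 Mb with 65 such regions among 81. Read density was also high in this stretch: in the authors' deposited table of micrococcal nuclease reads (MNase, an enzyme that cuts the DNA between nucleosomes), the 705 PR sites there had a median of 62.8 normalized reads per 100 bp in unstimulated cells, against 29.7 at the PR sites of all other chromosomes. Its part in the shares was not tested. Without the stretch the shares over the genome were 46.4% for polymerase and 68.6% for H3K4me3.

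Over 327 bins of 5 Mb with enough regions, the MNase read density in unstimulated cells from the authors' deposited table had a rank correlation of -0.48 with the share of polymerase regions that held H3K4me3 and of -0.31 with the share of H3K4me3 regions that held polymerase. Without chromosome 3 the values were -0.47 and -0.26 over 302 bins. Bins with high read density thus tended to have a larger share of their polymerase regions outside H3K4me3. Neighbouring bins resemble each other and the read density is known at PR sites only, so no test was made.

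A few windows, chosen here by count, held many polymerase regions without H3K4me3, though each of the 5 highest held under 1% of the class. The window from 35 to 36 Mb on chromosome 5 held 158 such regions among 165 polymerase regions, with 5 H3K4me3 regions. The window from 116 to 117 Mb on chromosome 8 held 135 among 138, with 10 H3K4me3 regions. In the window from 85 to 86 Mb on chromosome 16 there were 152 among 195, with 72 H3K4me3 regions, and H3K4me1 regions covered 81.8% of it, against 17.2% of the chromosome 5 window and 20.8% of the chromosome 8 window. The median MNase reads per 100 bp at PR sites in the authors' deposited table were 72.1 in the chromosome 16 window, 29.8 in the chromosome 5 window and 38.4 in the chromosome 8 window, against 30.3 over all PR sites. The chromosome 5 and 8 windows thus held fewer H3K4me3 regions and less H3K4me1 than the window from 85 to 86 Mb on chromosome 16. Also among the 5 highest was the window from 89 to 90 Mb on chromosome 16, with 114 among 146, 41 H3K4me3 regions and 73.1% H3K4me1. The last was 195 to 196 Mb on chromosome 3, with 109 among 125, 50 H3K4me3 regions and 88.8% H3K4me1. Over the genome, 2177 windows of 1 Mb held regions of both lists, 30 held polymerase alone and 250 held H3K4me3 alone.

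H3K4me1, which the classes were not chosen on, was more frequent where polymerase and H3K4me3 met. It overlapped 77.9% (77.2 to 78.6%) of polymerase regions with H3K4me3 and 68.3% (67.6 to 69.0%) of those without, against 72.7% of all polymerase regions. For H3K4me3 regions the shares were 76.5% (75.8 to 77.2%) with polymerase and 66.9% (65.9 to 68.0%) without, against 73.3% of the list. Both differences were wider than the intervals over regions. They were largest among the narrowest regions, as seen in 4 width classes of near equal size. In the narrowest class, 73.5% (71.6 to 75.4%) of polymerase regions with H3K4me3 and 59.2% (57.9 to 60.5%) of those without overlapped H3K4me1, and 75.7% (73.8 to 77.6%) of H3K4me3 regions with polymerase and 57.2% (55.6 to 58.9%) of those without. In the widest class these shares were 85.7% (84.7 to 86.6%) and 81.8% (80.3 to 83.2%) for polymerase regions, whose intervals do not overlap. For H3K4me3 regions they were 81.0% (79.9 to 82.0%) and 80.8% (77.2 to 84.1%), and these intervals overlap. In the second narrowest class of polymerase regions the shares were 72.3% (70.6 to 73.9%) with H3K4me3 and 66.7% (65.3 to 68.0%) without. In the next wider class they were 74.9% and 74.0%, with overlapping intervals. In the middle classes of H3K4me3 the share was 73.6% with polymerase and 75.0% without, then 74.0% and 76.9%, with overlapping intervals in both classes. Counting regions within 1 kb as shared put the polymerase difference at 14.5 percentage points, against 9.63 for overlaps of 1 bp. Merging regions within 500 bp put the difference at 15.6 percentage points for polymerase and 15.1 for H3K4me3. With both lists cut to their wider 50%, the difference was 3.06 and 5.92 points. That cut also changed the classes, since a wide region that met only narrow regions of the other list then counted as unshared. These points are therefore not comparable with the width classes above.

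The H3K4me1 share was lowest far from the other list. Among polymerase regions without H3K4me3 it was 89.0% (87.6 to 90.2%) within 1 kb of an H3K4me3 region, 59.6% (58.3 to 60.8%) between 10 and 50 kb and 45.5% (42.0 to 49.0%) beyond 100 kb. H3K4me3 regions without polymerase had 70.8% (68.8 to 72.8%) within 1 kb of a polymerase region, 78.0% (74.5 to 81.2%) between 1 and 5 kb, 75.2% between 5 and 10 kb, 72.0% between 10 and 50 kb, 66.3% between 50 and 100 kb and 54.3% (52.0 to 56.5%) beyond 100 kb. In all, 5353 polymerase regions (17.2%) overlapped neither H3K4me3 nor H3K4me1, 11516 (37.0%) overlapped H3K4me1 alone and 3149 (10.1%) H3K4me3 alone. Of the H3K4me3 regions, 2461 (10.9%) overlapped neither polymerase nor H3K4me1.

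PR, the receptor that R5020 activates, was listed more often in H3K4me3 regions with polymerase than in those without. In polymerase regions the share with a PR site at 60 min could not be told apart between those with and without H3K4me3. At 60 min of R5020, 948 polymerase regions with H3K4me3 (6.66%, 6.25 to 7.08%) and 1182 without (7.01%, 6.63 to 7.40%) held a PR site, against 6.85% of all. Per Mb of region, those with H3K4me3 held 94.4 PR sites and those without it 135. Within the 4 width classes, narrowest first, the shares of polymerase regions with and without H3K4me3 were 3.73% and 4.70%, 4.03% and 6.69%, 4.92% and 8.14%, and 10.9% and 10.7%. At like width, polymerase regions without H3K4me3 therefore had the higher share in the 3 narrower classes. H3K4me3 regions with polymerase held a PR site in 6.68% (6.29 to 7.09%) of cases and those without in 3.28% (2.89 to 3.71%), against 5.56% of the list, and per Mb of region they held 77.7 and 69.1 sites. By width class, narrowest first, the shares with and without polymerase were 4.36% and 2.73%, 5.20% and 3.36%, 5.34% and 3.42%, and 9.78% and 6.53%. H3K4me3 regions with polymerase thus had the higher share in each of the 4 classes. The H3K4me3 difference of 3.40 percentage points was 6.03 with regions within 500 bp merged. The difference between the polymerase classes, -0.35 percentage points (-0.92 to 0.22), was 1.03 with a reciprocal overlap of 50%, 0.60 with regions within 500 bp merged, -0.88 with midpoints and -1.43 in the wider 50% of each list, so its direction depends on the rule.

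At the other times the H3K4me3 classes kept this order after hormone. The shares holding a PR site were 5.42% with polymerase and 2.74% without at 5 min, 5.95% and 2.82% at 30 min, and 5.30% and 2.49% at 360 min, where 4.54%, 4.92% and 4.37% of the whole list did. Per Mb of region these H3K4me3 classes lay closer together. Those with and without polymerase held 62.9 and 59.4 PR sites at 5 min and 68.3 and 60.6 at 30 min. At 360 min they held 62.4 and 52.65. Width classes were not compared at these times. Before hormone few regions held a PR site, and the H3K4me3 classes could not be told apart at 0.409% (0.314 to 0.524%) with polymerase and 0.443% (0.305 to 0.622%) without, against 0.421% of the list. Polymerase regions did differ by more than counting error at 5, 30 and 360 min. At 5 min a PR site was held by 5.37% (5.01 to 5.75%) of those with H3K4me3 and 7.46% (7.07 to 7.86%) of those without, against 6.5% of the list. The shares with and without H3K4me3 were 5.95% (5.57 to 6.35%) and 7.06% (6.68 to 7.46%) at 30 min, 5.30% (4.94 to 5.68%) and 6.28% (5.92 to 6.66%) at 360 min and 0.449% (0.346 to 0.573%) and 0.296% (0.220 to 0.391%) at 0 min, against 6.55%, 5.83% and 0.366% of all polymerase regions.

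PR sites in the 4 combinations of polymerase and H3K4me3 differed in how MNase reads compared between the conditions. In the authors' deposited table, which gives the ratio of unstimulated to R5020 reads at each site of the 60 min list, the median ratio was 2.21 (interval of the median 2.13 to 2.30) at the 818 sites in regions of both lists, 1.93 (1.89 to 1.98) at the 1362 sites in polymerase alone, 1.58 (1.51 to 1.63) at the 434 sites in H3K4me3 alone and 1.25 (1.25 to 1.26) at the 21822 sites in neither. By the authors' deposited table the ratio exceeded 2 at 59.6% of the sites in both, 46.2% in polymerase alone, 25.9% in H3K4me3 alone and 8.92% in neither, against 13% of all sites. Sites with polymerase alone thus had a higher ratio than sites with H3K4me3 alone. By chromosome, this held on 20 of the 21 chromosomes with at least 5 sites of each kind.

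The same order was seen inside H3K4me1 regions, with medians from the authors' deposited table of 2.23 (2.15 to 2.34) in both, 1.97 (1.92 to 2.03) in polymerase alone, 1.61 (1.53 to 1.67) in H3K4me3 alone and 1.42 (1.41 to 1.43) in neither. Outside H3K4me1 they were 2.08 (1.91 to 2.29), 1.47 (1.41 to 1.70), 1.44 (1.26 to 1.60) and 1.14 (1.13 to 1.15), so that the intervals of polymerase alone and H3K4me3 alone overlapped. Normalized reads per 100 bp in unstimulated cells were 38.7, 38.0, 34.4 and 29.5 for these 4 classes over all sites in the authors' deposited table, and after R5020 they were 18.2, 19.9, 23.2 and 23.5. With a reciprocal overlap of 50%, the log2 difference between polymerase alone and H3K4me3 alone was 0.11, with an interval that included 0, against 0.29 for overlaps of 1 bp.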

How the data were processed

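RNA polymerase II and H3K4me3 regions of unstimulated T47D-MTVL cells were compared with 1 library per target. Each deposited list gives a chromosome, a start and an end per region, per the file headers, and the build is hg19, per the submitters' processing notes. The sources used here do not name the aligner, peak caller, thresholds, input or depth, so a region missing from a list is not shown to be unbound. The authors' MNase table holds normalized reads rounded to whole numbers, handled as a score, and their ratio, per the file headers.

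From these, regions were called shared at an overlap of 1 bp or more. Shares carry exact binomial 95% intervals and medians exact order-statistic ones. No p-value was computed. Named regions were the 5 widest of each class, the 3 farthest from the other list and the 3 with most overlaps. Members and lists were chosen with earlier results of these data known. The planned comparison at gene promoters was not made, because it needs an hg19 annotation. The gap classes, runs, 1 Mb windows and the split of chromosome 3 were chosen after seeing the data. Overlap and distance functions were checked on simulated data. Python 3.11.15, NumPy 2.4.6, pandas 2.3.3, SciPy 1.17.1 and Matplotlib 3.10.9 were used.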

Additional observations from a re-analysis of the deposited data

Results flagged for a closer look

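Outside the regions compared, 15 RNA polymerase II regions were listed on chromosome M, the mitochondrial genome, which was left out of each comparison, and they were picked out because they are signal in data not otherwise used. The H3K4me3 list held 3 regions there. No control list was used here.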

How the results depend on the processing

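Of 114 values under other settings for 15 results, 55 stayed within the interval of the reported value, 59 moved outside it and 0 changed sign where the reported interval excluded 0. Shares, widths, distances and the density ratio cannot change sign, so that count concerns the differences alone. It leaves out the PR difference for polymerase, whose interval included 0 and which changed sign with a reciprocal overlap and with merging. Leaving out chromosomes X and Y moved none of those recomputed. The 2 settings without chromosome 3 or its distal part were chosen after seeing the data. Depth is unknown, and each interval covers counting error only. No paired analysis was possible because each group has 1 sample. The density correlations were not recomputed, and the promoter comparison with its alternative windows was not run.

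With a reciprocal overlap of at least 50%, 19.2% of polymerase and 26.4% of H3K4me3 regions were shared. Median widths were 778 bp for polymerase with and 428 bp without H3K4me3, and 821 bp for H3K4me3 with and 553 bp without polymerase. The median distance was 2792 bp for polymerase without H3K4me3 and 0 bp for H3K4me3 without polymerase, since regions that overlap by less then count as unshared. The H3K4me1 differences were 8.26 points for polymerase and 7.20 for H3K4me3, the PR difference for polymerase was 1.03 points, and the log2 MNase differences were 0.69 (both over neither) and 0.11 (polymerase alone over H3K4me3 alone).

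With midpoints, the shares were 38.7% and 44.7%, the widths 583, 429, 727 and 560 bp in the same order, the distances 7140 and 273 bp, the polymerase H3K4me1 difference 7.79 points and the MNase difference of both over neither 0.91.

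Within 1 kb, the shares were 53.3% and 76.1%, the widths 566 bp for polymerase with H3K4me3, 744 bp for H3K4me3 with and 360 bp without polymerase, the distances 12353.5 and 57788 bp, the polymerase H3K4me1 difference 14.5 points and the MNase difference of both over neither 0.60.

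In the wider 50% of each list, the shares were 48.3% and 67.7%, the widths 829, 716, 1021.5 and 902 bp, the distances 11844 and 46214 bp, the H3K4me1 differences 3.06 and 5.92 points and the PR difference for polymerase -1.43 points. Widths are larger there by construction, and a region that met only narrower regions of the other list counted as unshared.

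With regions within 500 bp merged, 48.1% of polymerase regions were shared, the widths were 882.5 bp and 415 bp for polymerase with and without H3K4me3 and 1307 bp for H3K4me3 with polymerase, the distances 12638 and 50321 bp, the H3K4me1 differences 15.6 and 15.1 points and the PR differences 0.60 points for polymerase and 6.03 for H3K4me3.

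Without chromosome 3, 68.7% of H3K4me3 regions held polymerase, and the widths without the other list were 407 bp for polymerase and 383 bp for H3K4me3. Without its part from 160 Mb on, the shares were 46.4% and 68.6% and the width of H3K4me3 without polymerase 382 bp. Where not stated, the cause was not tested.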
